A study of Homo sapiens with 2 samples.

Results

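The actin cytoskeleton is described here through 53 genes in HK-2 cells, a human line of immortalised proximal tubule epithelium, after infection with an adenovirus that carried either a Bmal1 coding sequence or green fluorescent protein (GFP). The genes were taken from a list of symbols covering actins, proteins that bind actin monomers, nucleation and capping factors, crosslinkers, tropomyosins and calponins, myosin II, focal adhesion proteins and membrane linkers. The rule names symbols and no measured value, but the list was written with earlier results of these data known. Shares of members set beside those of all measured genes are therefore descriptions only. All 53 were found among the 58302 gene identifiers of the deposited count tables, and 51 of them were among the 13231 genes that reached 1 CPM, the usual count scaled to library size, in at least 1 library. The 2 members below that level were ACTA2 and TPM2.

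There were 2 libraries, 1 per group. The library labelled Ad-Bmal1 came from cells given the vector with Bmal1, the transcription factor that drives the circadian clock together with CLOCK, and the library labelled Ad-GFP came from cells given the GFP vector. Cells of both groups were at passages 7 to 11, grown in RPMI-1640 with 10% serum, infected for 24 h and used for polyA RNA libraries, so both carried an adenovirus and neither was uninfected. The labels do not give the species of the Bmal1 sequence, and they spell the cell line out differently in the 2 libraries, so both were taken as HK-2 without a check.

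The libraries held 20051735 counts for the library labelled Ad-Bmal1 and 20032652 for the library labelled Ad-GFP. BMAL1, the gene named in the label, had 133 counts in the library labelled Ad-Bmal1 and 204 in the library labelled Ad-GFP, a ratio of 0.667 (0.532 to 0.834), which goes against the label, so each direction below refers to the library as labelled. In bulk RNA, fewer cells of a kind and less RNA per cell cannot be told apart. Epithelial markers of the kidney summed to 2808 CPM in the library labelled Ad-Bmal1 and 2827 CPM in the library labelled Ad-GFP, with 7 of 9 measured. CDH1 (E-cadherin) was not measured, with 4 counts in the library labelled Ad-Bmal1 and 1 in the library labelled Ad-GFP. Nor was PAX2, with 8 counts in the library labelled Ad-Bmal1 and 3 in the library labelled Ad-GFP. Behind that sum, PAX8 had 8529 counts in the library labelled Ad-Bmal1 and 6502 in the library labelled Ad-GFP, a ratio of 1.34, and CDH6 a ratio of 1.26, while KRT18 had 3212 counts in the library labelled Ad-Bmal1 and 4925 in the library labelled Ad-GFP, a ratio of 0.667. Markers of the differentiated proximal tubule were mostly missing, with 2 of 10 measured, a sum of 249 CPM in the library labelled Ad-Bmal1, against 225 CPM in the library labelled Ad-GFP. GGT1 held most of that sum, with 4881 counts in the library labelled Ad-Bmal1 and 4473 in the library labelled Ad-GFP. The ratio of GGT1 was 1.12 (1.07 to 1.16). The other measured marker, MME, had 20 counts in the library labelled Ad-Bmal1 and 29 in the library labelled Ad-GFP, and its interval included 1. LRP2 and SLC22A6 had 0 counts in both libraries. Smooth muscle markers summed to 221 CPM in the library labelled Ad-Bmal1 and 224 CPM in the library labelled Ad-GFP, with 4 of 8 measured. Those measured were SMTN, TAGLN, CNN1 and LMOD1. SMTN held most of the sum, with 2852 counts in the library labelled Ad-Bmal1 and 3006 in the library labelled Ad-GFP. The markers MYH11, DES, ACTG2 and ACTA2 had at most 13 counts in either library. Fibroblast markers summed to 102 CPM in the library labelled Ad-Bmal1 and 79.7 CPM in the library labelled Ad-GFP, with 5 of 8 measured, mostly COL1A1, and with COL1A2, PDGFRA and POSTN at 4 counts or fewer. THY1 had 33 counts in the library labelled Ad-Bmal1 and 8 in the library labelled Ad-GFP, a ratio of 4.22 (1.91 to 10.6). DCN went the other way, with 91 counts in the library labelled Ad-Bmal1 and 130 in the library labelled Ad-GFP. Its ratio was 0.72 (0.54 to 0.94). LUM had 195 counts in the library labelled Ad-Bmal1 and 171 in the library labelled Ad-GFP, with an interval that included 1. The part of these markers in the results was not tested. No endothelial or blood cell marker was measured. With 1 library per group there is no replicate check. Each ratio below is the library labelled Ad-Bmal1 over the library labelled Ad-GFP after TMM scaling, with an exact 95% interval in parentheses that covers counting error only.

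Actin monomers polymerise into filaments whose growth is set by proteins that hold monomers in reserve, start new filaments or block their ends. Filaments are then bundled by crosslinkers, made contractile by non-muscle myosin II, and anchored to the matrix through focal adhesions, and together these form the stress fibres of cultured cells. In tubular epithelium the same set builds the microvilli and the cortical ring beneath cell junctions, and many of its genes are targets of serum response factor and its cofactor MRTF.

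With an interval that excludes 1, 11 of the 51 measured genes (21.6%) stood at least 25% higher in the library labelled Ad-Bmal1, against 11.6% of all measured genes. These were the crosslinkers FLNA, FLNC and LIMA1, the calponin CNN1, the myosin II genes MYH9, MYH10, MYL9 and MYLK, and the focal adhesion genes TLN1, VCL and ZYX. The same change the other way, at least 20% lower, was met by 4 genes (7.84%), against 11.2% of all measured genes, and these were TMSB4X, GSN, MYL12A and MYL12B. Among genes of 1000 or more summed counts, 10 of 46 members (21.7%) were higher against a background of 11.7%, and 4 of 46 (8.7%) were lower against 7.25%.

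A size of 1.5-fold was passed by 3 members (5.88%), FLNC, LIMA1 and CNN1, each above 1, against 4.41% of all measured genes, and VCL lay just under that size at 1.48. No member was 1.5-fold lower, against 4.9% of all measured genes, and none was 2-fold different, against 1.13% higher and 1.74% lower over all measured genes. Among genes of 1000 or more summed counts, 2 of 46 members (4.35%) were 1.5-fold higher against a background of 2.33%, and 0 were 1.5-fold lower against 1.43%. Most differences among these genes were therefore small. The interval lay above 1 for 21 members and below 1 for 16, and it included 1 for 14, that is above for 41.2% and below for 31.4% of members, while over all measured genes it lay above 1 for 23.8% and below 1 for 21.6%. Such intervals narrow with counts, and among genes of 1000 or more summed counts it lay above 1 for 20 of 46 members (43.5%) against 37.2% of genes, and below 1 for 16 (34.8%) against 27.6%. The median log2 ratio was 0.03 over the members and 0.00 over all measured genes. Summed over all 53 genes, there were 1157184 counts, or 5.77% of the library labelled Ad-Bmal1, and 1152040 counts, or 5.75% of the library labelled Ad-GFP.

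**Figure D1:**
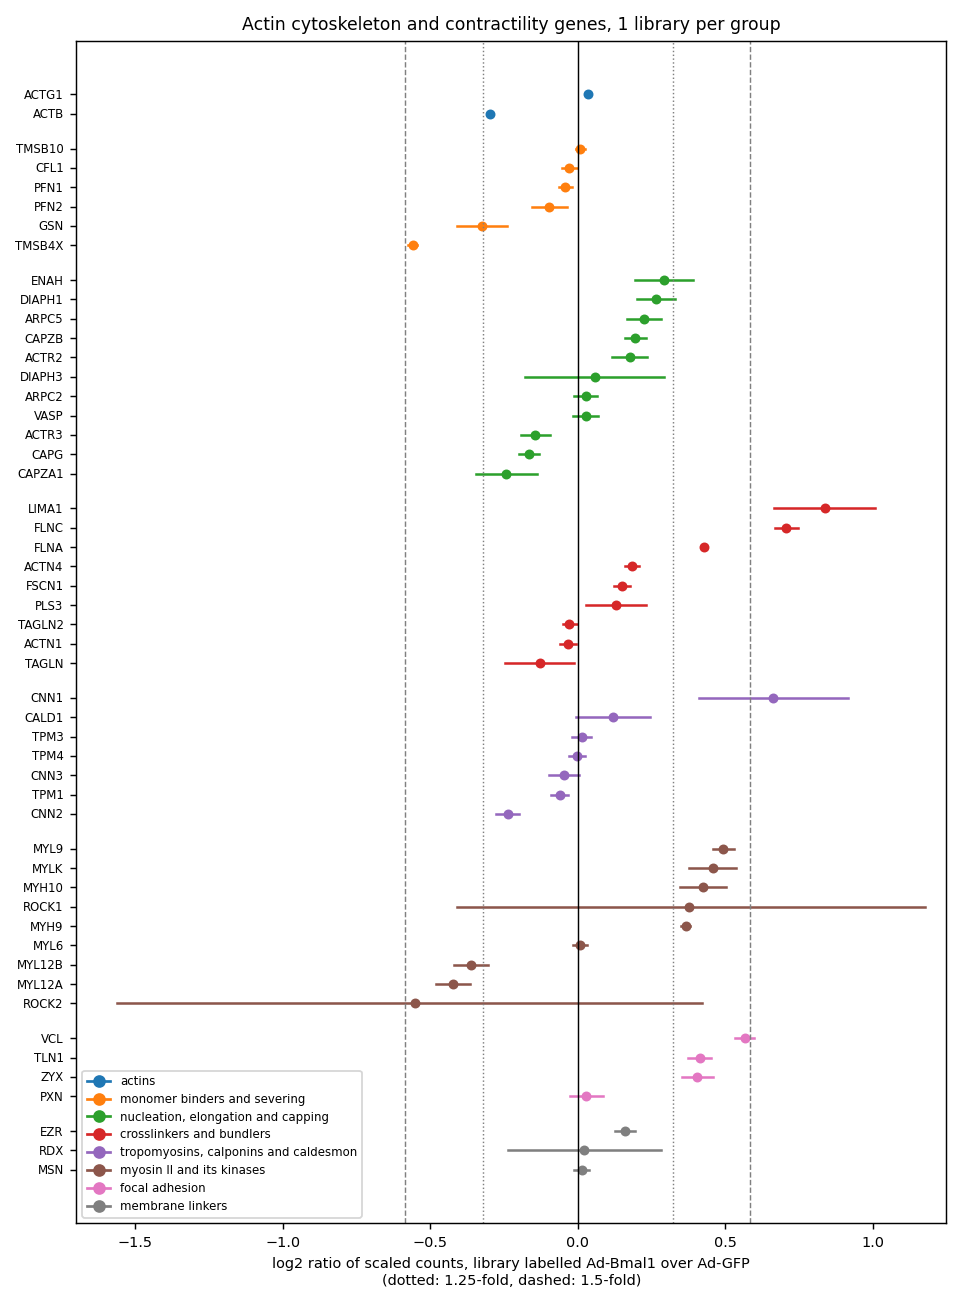
Log2 ratio of scaled counts, the library labelled Ad-Bmal1 divided by the library labelled Ad-GFP, for the members grouped by role; bars are exact 95% counting intervals. Focal adhesion and myosin heavy chain genes lie to the right of 0, TMSB4X and the light chains MYL12A and MYL12B lie to the left, and ROCK1 and ROCK2, which have few counts, have the widest bars. Dotted lines mark 25% higher and 20% lower, and dashed lines mark 1.5-fold.

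Transcript length moved with the ratio. The 18 members whose longest coding transcript has 4000 bases or more had a median log2 ratio of 0.28, with 16 above and 2 below 0, and 7 of them (38.9%) were at least 25% higher in the library labelled Ad-Bmal1. All 4974 measured genes of that length had a median of 0.09, and 19.4% of them were that much higher; of the 2012 such genes with 1000 or more summed counts, 22.3% were. The 12 members under 2000 bases had a median of -0.04, against -0.08 for the 3211 measured genes of that length. Across the 51 members Spearman's rank correlation between ratio and length was 0.54 as a description, and it was 0.24 across 13211 measured genes; points in both share the same 2 libraries. With the length trend of all measured genes removed, 6 of the 11 higher genes kept their place, namely FLNC, LIMA1, CNN1, MYL9, VCL and ZYX. These were 11.8% of the 51 members, near the 9.91% of all measured genes under the same removal, so most of the gap to the background at this size was no longer seen. On the lower side 3 members (5.88%) remained, against 11.3% of all measured genes. FLNA, MYH9, MYH10, MYLK and TLN1 then no longer reached 25%, and MYL12B no longer reached 20% among the lower genes. The split of intervals above and below 1 was then 28 to 11, against 21 to 16 without the removal. The same split over all measured genes under the removal is not given here, so no comparison with the background is drawn from it.

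**Figure D2:**
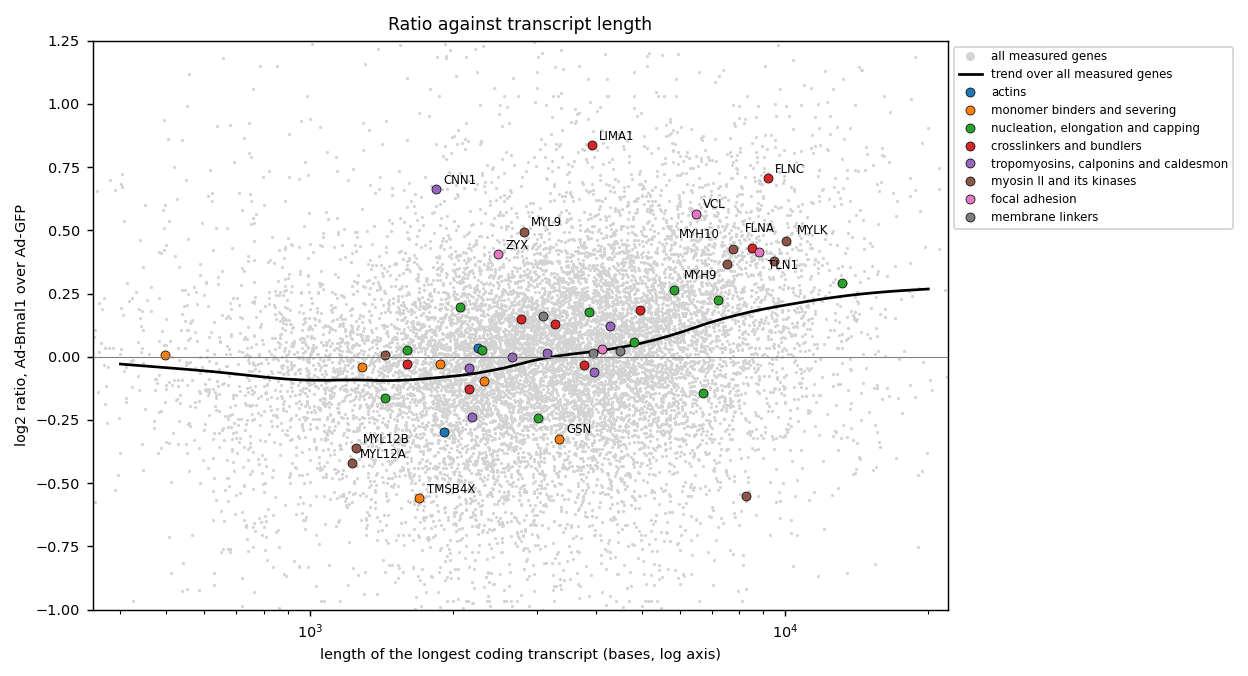
Log2 ratio (the library labelled Ad-Bmal1 divided by the library labelled Ad-GFP) against the length of the longest coding transcript in bases, on a log axis; grey points are all measured genes within the plotted range, coloured points are the members by role, and the black line is the trend over all measured genes. The trend lies below 0 for short transcripts and above 0 beyond 4000 bases, where 15 of the 18 members lie above it.

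Promoter sequences were taken from RefSeq on GRCh38.p14 as windows of 250 bases before to 50 after the start, and 48 of the 53 members matched one. The CArG box, the element that serum response factor binds, was searched on both strands. It stood in the windows of 7 of 48 members (14.6%), against 438 of all 27305 genes in the table (1.6%). The 7 were ACTG1, ACTN1, CNN2, FLNA, MYLK, ROCK2 and TPM4. Their ratios were 1.02, 0.977, 0.848, 1.35, 1.37, 0.682 and 0.999 in that order, so members with a match lay on both sides of 1. The motif GGAATG, bound by TEAD factors and searched on both strands, stood in 15 of 48 members (31.2%), against 16.7% of all genes. A gene matched if any of its windows did, and the 48 members had 84 windows, against 35116 windows for 27305 genes. Per window the TEAD motif stood in 19.0% of member windows, against 14.0% of all windows. For the CArG box these shares were 8.33% and 1.29%. The 2 searches were separate, so a match of one motif could share bases with a match of the other. Of the 7, a pair with a higher ratio, 1 near 1 and 1 with a lower ratio are given for the 250 bases before the start, with the CArG box in capitals.

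FLNA promoter, chrX:154374635-154374884, minus strand: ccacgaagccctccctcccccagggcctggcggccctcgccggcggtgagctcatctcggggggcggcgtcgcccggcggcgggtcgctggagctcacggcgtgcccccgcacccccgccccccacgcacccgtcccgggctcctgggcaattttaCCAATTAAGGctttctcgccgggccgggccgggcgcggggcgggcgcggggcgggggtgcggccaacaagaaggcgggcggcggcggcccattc

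MYLK promoter, chr3:123620549-123620798, minus strand: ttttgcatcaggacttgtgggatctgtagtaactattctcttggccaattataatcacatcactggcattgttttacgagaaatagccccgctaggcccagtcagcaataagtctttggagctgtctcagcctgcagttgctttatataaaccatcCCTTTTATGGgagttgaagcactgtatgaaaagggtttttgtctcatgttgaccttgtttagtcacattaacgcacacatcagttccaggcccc

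ACTG1 promoter, chr17:81512800-81513049, minus strand: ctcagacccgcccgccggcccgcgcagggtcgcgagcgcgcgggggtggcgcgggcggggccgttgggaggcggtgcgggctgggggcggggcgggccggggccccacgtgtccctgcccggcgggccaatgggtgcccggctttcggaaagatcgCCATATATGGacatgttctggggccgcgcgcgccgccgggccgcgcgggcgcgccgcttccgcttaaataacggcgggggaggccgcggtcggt

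CNN2 promoter, chr19:1026358-1026607, plus strand: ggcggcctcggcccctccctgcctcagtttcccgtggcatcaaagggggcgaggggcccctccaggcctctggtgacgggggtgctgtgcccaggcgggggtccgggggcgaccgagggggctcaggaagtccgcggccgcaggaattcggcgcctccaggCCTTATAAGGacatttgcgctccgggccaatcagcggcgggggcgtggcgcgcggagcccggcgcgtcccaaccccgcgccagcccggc

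Within these stretches the box began 94 bases before the start in FLNA, MYLK and ACTG1 and 89 bases before it in CNN2. The MYLK window lies before a start inside the annotated gene, near its 3′ end, and the ACTG1 window also lies inside the gene's annotated extent. A match describes the letters of the window and says nothing of whether the factor was bound in these cells.

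The cytoplasmic actins ACTG1 and ACTB had the highest mean CPM of the set, and their ratios lay on different sides of 1. Gene positions are from GENCODE 29 on GRCh38. ACTB (beta-actin; chromosome 7, 5527147 to 5563784) had 144312 counts in the library labelled Ad-Bmal1 and 181240 in the library labelled Ad-GFP, a ratio of 0.815 (0.809 to 0.820). ACTG1 (gamma-actin; chromosome 17, 81509971 to 81523847) had 166726 counts in the library labelled Ad-Bmal1 and 166656 in the library labelled Ad-GFP, a ratio of 1.02 (1.02 to 1.03), and on total counts its ratio was just under 1. Beta-actin was therefore the lower one in the library labelled Ad-Bmal1, and gamma-actin was nearly level. ACTB made up 46.4% of the summed counts of both genes in the library labelled Ad-Bmal1 and 52.1% in the library labelled Ad-GFP, and the sum had a ratio of 0.915 (0.910 to 0.919). Their coding sequences share 91.2% of bases with a longest identical run of 59 bases, shorter than a read of 150 bases. The smooth muscle actin ACTA2 had 5 counts in the library labelled Ad-Bmal1 and 4 in the library labelled Ad-GFP.

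Per transcript length the order of levels was led by TMSB10, with 7879 RPKM in the library labelled Ad-Bmal1 and 7833 RPKM in the library labelled Ad-GFP. ACTB followed with 3792 RPKM in the library labelled Ad-Bmal1 and 4654 RPKM in the library labelled Ad-GFP. ACTG1 had 3730 RPKM in the library labelled Ad-Bmal1 and 3644 RPKM in the library labelled Ad-GFP. RPKM, here the CPM divided by the kilobases of the longest coding transcript, rests on a transcript that need not be the expressed one. In the library labelled Ad-Bmal1 ACTB and ACTG1 were close on this scale, while in the library labelled Ad-GFP ACTB was above ACTG1. TMSB4X came next with 1605 RPKM in the library labelled Ad-Bmal1 and 2366 RPKM in the library labelled Ad-GFP, and PFN1 had 1376 RPKM in the library labelled Ad-Bmal1 and 1417 RPKM in the library labelled Ad-GFP. FLNA, the most abundant crosslinker, had 1065 RPKM in the library labelled Ad-Bmal1 and 791 RPKM in the library labelled Ad-GFP. ROCK2, ROCK1, ACTA2 and TPM2 had the lowest levels of the set.

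**Figure D3:**
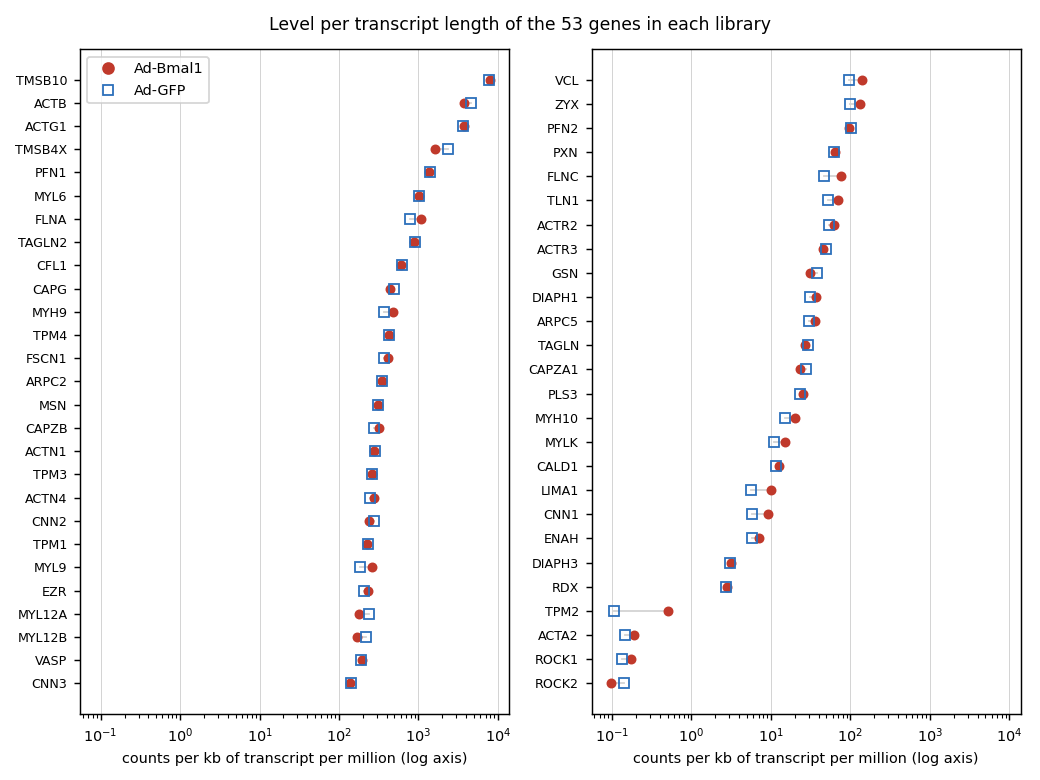
Level of each of the 53 genes in RPKM (CPM per kb of transcript, log axis), with red circles for the library labelled Ad-Bmal1 and open blue squares for the library labelled Ad-GFP, ordered by mean level. TMSB10 stands at the top and ROCK2 at the bottom, and the symbols of most genes lie close together.

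Proteins that bind actin monomers or sever filaments were level or lower in the library labelled Ad-Bmal1. Of these 6 genes, 5 had an interval below 1 and 1 included 1. Over all measured genes 21.6% lay below 1, or 27.6% of those with 1000 or more summed counts. The group's median log2 ratio was -0.07, or 0.01 with the length trend removed. The clearest was TMSB4X (thymosin beta-4, the main buffer of actin monomers; chromosome X, 12975108 to 12977227), with 54115 counts in the library labelled Ad-Bmal1, against 81654 in the library labelled Ad-GFP, a ratio of 0.678 (0.671 to 0.686). Its close relative TMSB10 (thymosin beta-10) had 77427 counts in the library labelled Ad-Bmal1 and 78764 in the library labelled Ad-GFP, a ratio of 1.01 (0.996 to 1.02), and lay under 1 on total counts, DESeq2 size factors, and totals that leave out mitochondrial and the 20 most abundant genes. TMSB4X made up 41.1% of the counts of this pair in the library labelled Ad-Bmal1 and 50.9% in the library labelled Ad-GFP. Reads can be told apart, since the coding sequences, each 135 bases long, differ at 37 positions. They follow here from GENCODE transcripts, with the differing bases in capitals.

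TMSB4X coding bases 1 to 135: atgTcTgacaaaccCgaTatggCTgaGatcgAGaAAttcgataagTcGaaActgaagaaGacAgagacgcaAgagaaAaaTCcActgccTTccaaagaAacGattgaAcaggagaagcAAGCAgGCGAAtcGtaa

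TMSB10 coding bases 1 to 135: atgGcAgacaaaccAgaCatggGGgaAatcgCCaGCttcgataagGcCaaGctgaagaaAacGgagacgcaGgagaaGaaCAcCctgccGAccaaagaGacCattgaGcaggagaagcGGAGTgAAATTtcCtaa

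Pseudogenes named after TMSB4X held 1362 counts in the library labelled Ad-Bmal1 and 1903 in the library labelled Ad-GFP, and with them added the ratio was 0.679. GSN (gelsolin, which severs and caps filaments on calcium; chromosome 9, 121207794 to 121332843) had 2031 counts in the library labelled Ad-Bmal1 and 2601 in the library labelled Ad-GFP, a ratio of 0.799 (0.754 to 0.847). The nucleotide-exchange factors for actin, the profilins, differed little: PFN1 had 35190 counts in the library labelled Ad-Bmal1 and 37078 in the library labelled Ad-GFP, a ratio of 0.971 (0.957 to 0.985), and PFN2 had 4451 counts in the library labelled Ad-Bmal1 and 4868 in the library labelled Ad-GFP, a ratio of 0.936 (0.898 to 0.975). CFL1 (cofilin-1, which severs old filaments) had 22500 counts in the library labelled Ad-Bmal1 and 23476 in the library labelled Ad-GFP, a ratio of 0.981 (0.963 to 0.999). Both PFN1 and CFL1 lay just above 1 with the length trend removed. Of this group TMSB4X and GSN were at least 20% lower.

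Genes that nucleate, elongate or cap filaments differed in both directions and stayed under 25% higher or 20% lower. Of their 11 intervals, 5 lay above 1, 3 lay below and 3 included 1. The shares over all measured genes of 1000 or more summed counts were 37.2% above and 27.6% below. The formin DIAPH1, which grows unbranched filaments, had 4311 counts in the library labelled Ad-Bmal1 and 3668 in the library labelled Ad-GFP, a ratio of 1.20 (1.15 to 1.26). ENAH (Mena, which shields growing ends from capping) had 1841 counts in the library labelled Ad-Bmal1 and 1538 in the library labelled Ad-GFP, a ratio of 1.23 (1.14 to 1.31). Its relative VASP was level, with 8886 counts in the library labelled Ad-Bmal1 and 8921 in the library labelled Ad-GFP, a ratio of 1.02 (0.990 to 1.05). DIAPH3, another formin, had far fewer reads, 302 counts in the library labelled Ad-Bmal1 and 297 in the library labelled Ad-GFP, a ratio of 1.04 (0.884 to 1.23). Subunits of the Arp2/3 complex, which starts branched filaments, did not share a direction. ARPC5 had 5071 counts in the library labelled Ad-Bmal1 and 4440 in the library labelled Ad-GFP, a ratio of 1.17 (1.12 to 1.22), and ACTR2 had 4700 counts in the library labelled Ad-Bmal1 and 4256 in the library labelled Ad-GFP, a ratio of 1.13 (1.08 to 1.18). ACTR3 was the lower one, with 5988 counts in the library labelled Ad-Bmal1 and 6769 in the library labelled Ad-GFP, a ratio of 0.905 (0.874 to 0.937), while ARPC2 was close to level with 11203 counts in the library labelled Ad-Bmal1 and 11251 in the library labelled Ad-GFP, a ratio of 1.02 (0.993 to 1.05). The capping proteins split too. CAPZB had 12917 counts in the library labelled Ad-Bmal1 and 11543 in the library labelled Ad-GFP, a ratio of 1.15 (1.12 to 1.17), whereas its partner CAPZA1 had 1391 counts in the library labelled Ad-Bmal1 and 1684 in the library labelled Ad-GFP, a ratio of 0.845 (0.787 to 0.908). CAPG, a gelsolin relative that caps without severing, had 12527 counts in the library labelled Ad-Bmal1 and 14363 in the library labelled Ad-GFP, a ratio of 0.892 (0.871 to 0.914). On total counts ARPC2 and VASP lay just under 1.

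Crosslinkers and bundlers held 2 of the 3 genes past 1.5-fold. LIMA1 (EPLIN, which bundles filaments and links cadherin junctions to actin; chromosome 12, 50175788 to 50283546) had 777 counts in the library labelled Ad-Bmal1, against 445 in the library labelled Ad-GFP, a ratio of 1.79 (1.59 to 2.01). FLNC (filamin C; chromosome 7, 128830377 to 128859274) had 13977 counts in the library labelled Ad-Bmal1, against 8761 in the library labelled Ad-GFP, a ratio of 1.63 (1.59 to 1.68). With the length trend removed LIMA1 stood at 1.76 and FLNC at 1.43, the value for FLNC being under the 1.5-fold size. FLNA (filamin A, a large flexible crosslinker of cortical actin; chromosome X, 154348524 to 154374638) had 179729 counts in the library labelled Ad-Bmal1, against 136639 in the library labelled Ad-GFP, a ratio of 1.35 (1.34 to 1.36). At 8516 bases its transcript is among the longest of the set, and with the length trend removed its ratio was 1.19. The alpha-actinins, which space parallel filaments, differed less. ACTN4 had 27360 counts in the library labelled Ad-Bmal1 and 24639 in the library labelled Ad-GFP, a ratio of 1.14 (1.12 to 1.16), and ACTN1 had 20611 counts in the library labelled Ad-Bmal1 and 21579 in the library labelled Ad-GFP, a ratio of 0.977 (0.959 to 0.996). FSCN1 (fascin, the bundler of filopodia) had 22563 counts in the library labelled Ad-Bmal1 and 20814 in the library labelled Ad-GFP, a ratio of 1.11 (1.09 to 1.13). PLS3 (plastin-3) had 1643 counts in the library labelled Ad-Bmal1 and 1537 in the library labelled Ad-GFP, a ratio of 1.09 (1.02 to 1.17). The transgelins, small calponin-related proteins, lay just under 1. TAGLN had 1153 counts in the library labelled Ad-Bmal1 and 1290 in the library labelled Ad-GFP, a ratio of 0.915 (0.844 to 0.991), and TAGLN2 had 28303 counts in the library labelled Ad-Bmal1 and 29524 in the library labelled Ad-GFP, a ratio of 0.981 (0.965 to 0.997), which turned to just above 1 with the length trend removed. In all, 6 of 9 intervals in this group were above 1 and 3 below, and the median log2 ratio was 0.15. Among all measured genes of 1000 or more summed counts, 37.2% of intervals were above 1 and 27.6% below.

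Tropomyosins, calponins and caldesmon, which lie along the filament and regulate myosin, were mostly level. Here 4 of 7 intervals included 1, as did those of 7230 of all 13231 measured genes. All of these measured genes but CNN1 had 1000 or more summed counts. Among all measured genes of that level the interval included 1 for 1995 of 5658. CNN1 (calponin 1, a smooth muscle marker; chromosome 19, 11538717 to 11550323) was the exception, with 334 counts in the library labelled Ad-Bmal1, against 216 in the library labelled Ad-GFP, a ratio of 1.58 (1.33 to 1.89). It is a low-count gene, with 16.9 CPM in the library labelled Ad-Bmal1 and 10.7 CPM in the library labelled Ad-GFP. Of the other smooth muscle markers, MYH11, DES, ACTG2 and ACTA2 were near 0 in both libraries, while SMTN, TAGLN and LMOD1 were measured. CNN2 went the other way, with 10322 counts in the library labelled Ad-Bmal1 and 12456 in the library labelled Ad-GFP, a ratio of 0.848 (0.826 to 0.870), and CNN3 had 5917 counts in the library labelled Ad-Bmal1 and 6250 in the library labelled Ad-GFP, a ratio of 0.969 (0.935 to 1.00), which lay above 1 with the length trend removed. CNN2 held most of the counts of this family, and the summed ratio of the 3 calponins was 0.896. TPM1 had 17588 counts in the library labelled Ad-Bmal1 and 18779 in the library labelled Ad-GFP, a ratio of 0.958 (0.939 to 0.978). TPM3 had 16424 counts in the library labelled Ad-Bmal1 and 16652 in the library labelled Ad-GFP, a ratio of 1.01 (0.988 to 1.03), which lay under 1 on total counts and DESeq2 size factors. TPM4 had 22283 counts in the library labelled Ad-Bmal1 and 22825 in the library labelled Ad-GFP, a ratio of 0.999 (0.981 to 1.02), which lay above 1 with the length trend removed. None of these tropomyosins reached 25% higher or 20% lower. TPM2 was not measured, with 14 counts in the library labelled Ad-Bmal1 and 3 in the library labelled Ad-GFP. CALD1 (caldesmon) had 1066 counts in the library labelled Ad-Bmal1 and 1004 in the library labelled Ad-GFP, a ratio of 1.09 (0.996 to 1.19).

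Myosin II, the motor that pulls on filaments, differed between its own parts, with heavy chains higher and part of the light chains lower in the library labelled Ad-Bmal1. MYH9 (the heavy chain of non-muscle myosin IIA; chromosome 22, 36281277 to 36388067) had 72173 counts in the library labelled Ad-Bmal1, against 57283 in the library labelled Ad-GFP, a ratio of 1.29 (1.28 to 1.30). MYH10 (that of myosin IIB; chromosome 17, 8474205 to 8630761) had 3071 counts in the library labelled Ad-Bmal1, against 2341 in the library labelled Ad-GFP, a ratio of 1.34 (1.27 to 1.42). With the length trend removed these ratios were 1.16 and 1.20. MYLK (myosin light-chain kinase, which switches the motor on; chromosome 3, 123610049 to 123884331) had 2957 counts in the library labelled Ad-Bmal1, against 2204 in the library labelled Ad-GFP, a ratio of 1.37 (1.30 to 1.45), and 1.19 with the length trend removed.

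The regulatory light chains that this kinase phosphorylates did not share a direction. MYL9 (chromosome 20, 36541484 to 36551447) had 14647 counts in the library labelled Ad-Bmal1, against 10641 in the library labelled Ad-GFP, a ratio of 1.41 (1.37 to 1.44). MYL12A (chromosome 18, 3247481 to 3256236) had 4306 counts in the library labelled Ad-Bmal1, against 5902 in the library labelled Ad-GFP, a ratio of 0.747 (0.718 to 0.777), and its neighbour MYL12B (chromosome 18, 3261479 to 3278431) had 4220 counts in the library labelled Ad-Bmal1, against 5544 in the library labelled Ad-GFP, a ratio of 0.779 (0.748 to 0.811). So MYL9 was the higher one, while both MYL12 genes were lower by similar amounts. MYL9 made up 63.2% of the summed counts of these 3 regulatory light chains in the library labelled Ad-Bmal1 and 48.2% in the library labelled Ad-GFP, and the sum had a ratio of 1.07. The coding sequences of MYL12A and MYL12B share 95.2% of bases with a longest identical run of 77 bases, shorter than a read of 150 bases. A full read within the coding sequence thus meets a difference. How reads were counted is not given, so a split of some reads between these genes could not be checked. Their sum, which does not depend on that split, had a ratio of 0.762 (0.741 to 0.784). Their first 150 coding bases are shown with the differing or unpaired bases in capitals, and MYL9 shares 78.6% of bases with MYL12A and 80.5% with MYL12B.

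MYL12A coding bases 1 to 150: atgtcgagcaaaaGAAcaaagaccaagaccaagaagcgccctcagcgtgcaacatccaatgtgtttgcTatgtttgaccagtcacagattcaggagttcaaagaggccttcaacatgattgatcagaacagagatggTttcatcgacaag

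MYL12B coding bases 1 to 150: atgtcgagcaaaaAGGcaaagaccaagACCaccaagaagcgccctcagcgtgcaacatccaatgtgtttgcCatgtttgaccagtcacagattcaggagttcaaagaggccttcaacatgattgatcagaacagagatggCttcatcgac

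MYL6, the essential light chain, was level, with 29117 counts in the library labelled Ad-Bmal1 and 29625 in the library labelled Ad-GFP, a ratio of 1.01 (0.990 to 1.02), which lay just under 1 on total counts, DESeq2 size factors, and totals that leave out mitochondrial and the 20 most abundant genes. The kinases ROCK1 and ROCK2, which raise light-chain phosphorylation, had too few reads for a direction to be detectable at this depth. ROCK1 had 33 counts in the library labelled Ad-Bmal1 and 26 in the library labelled Ad-GFP, a ratio of 1.30 (0.753 to 2.26), and ROCK2 had 16 counts in the library labelled Ad-Bmal1 and 24 in the library labelled Ad-GFP, a ratio of 0.682 (0.339 to 1.34).

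**Figure D4:**
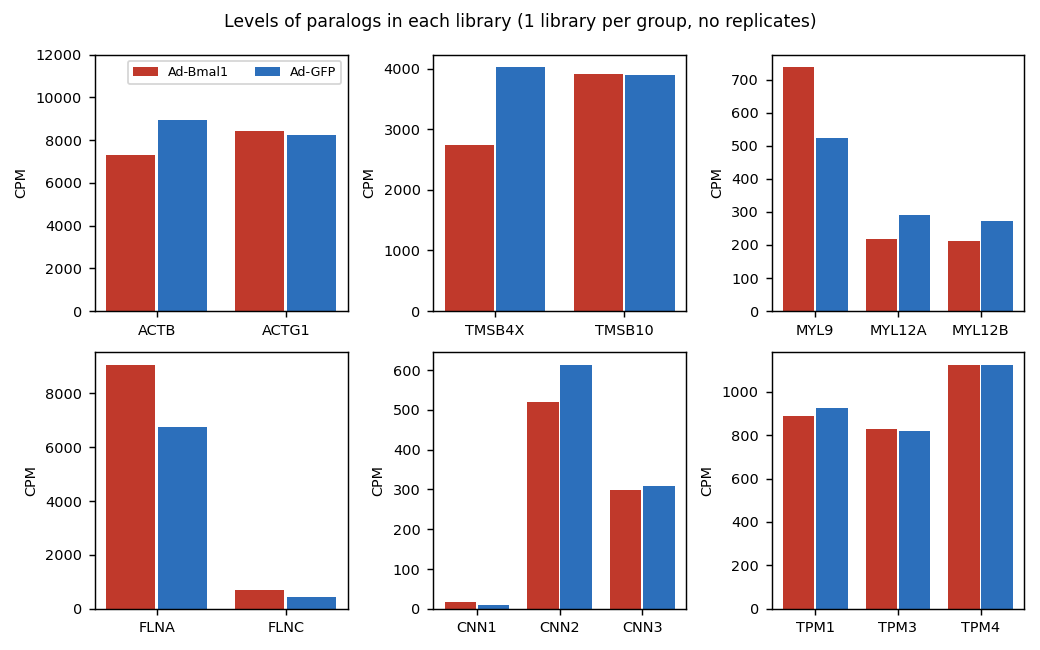
CPM of related genes in the library labelled Ad-Bmal1 (left bar of each pair) and the library labelled Ad-GFP (right bar), for actins, thymosins, myosin regulatory light chains, filamins, calponins and tropomyosins; bars start at 0 and each panel has its own scale. ACTB and TMSB4X are lower in the library labelled Ad-Bmal1 while ACTG1 and TMSB10 are level, and MYL9 is higher while MYL12A and MYL12B are lower.

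Focal adhesion genes had the highest group median, a log2 ratio of 0.41, or 0.34 with the length trend removed. Their intervals lay above 1 in 3 of 4, against 37.2% of all measured genes of 1000 or more summed counts. VCL (vinculin, recruited to adhesions under tension; chromosome 10, 73995193 to 74121363) had 18084 counts in the library labelled Ad-Bmal1, against 12495 in the library labelled Ad-GFP, a ratio of 1.48 (1.45 to 1.52). ZYX (zyxin, a mechanosensitive adaptor of adhesions and stress fibres; chromosome 7, 143381080 to 143391111) had 6546 counts in the library labelled Ad-Bmal1, against 5054 in the library labelled Ad-GFP, a ratio of 1.33 (1.28 to 1.38). TLN1 (talin-1, which couples integrins to actin; chromosome 9, 35696948 to 35732395) had 12094 counts in the library labelled Ad-Bmal1, against 9295 in the library labelled Ad-GFP, a ratio of 1.33 (1.30 to 1.37). With the length trend removed VCL stood at 1.37, ZYX at 1.37 and TLN1 at 1.17. PXN (paxillin, an adhesion scaffold) was level, with 5178 counts in the library labelled Ad-Bmal1 and 5191 in the library labelled Ad-GFP, a ratio of 1.02 (0.982 to 1.06), and lay just under 1 on total counts. Of the exonic bases of VCL, 11.1% also belong to AP3M1, and without a stated strand setting reads there cannot be assigned to one gene. Such shared bases made up 10% or more in CFL1, CAPZA1, ACTN4, TAGLN, TPM1, MYL6, PXN and the unmeasured ACTA2 too.

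Membrane linkers of the ERM family, which tie the cortex to the plasma membrane, were close to level. EZR (ezrin, the microvillar member) had 14323 counts in the library labelled Ad-Bmal1 and 13116 in the library labelled Ad-GFP, a ratio of 1.12 (1.09 to 1.14). MSN (moesin) had 24232 counts in the library labelled Ad-Bmal1 and 24572 in the library labelled Ad-GFP, a ratio of 1.01 (0.991 to 1.03), and RDX (radixin) had 248 counts in the library labelled Ad-Bmal1 and 250 in the library labelled Ad-GFP, a ratio of 1.02 (0.848 to 1.22). The direction of MSN and RDX turned under total counts and with the length trend removed.

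Of 124 further genes of the same pathways, 116 were measured, 53 with an interval above 1 and 21 below, and their median log2 ratio was 0.12, or 0.08 with the length trend removed. The intervals above 1 were 45.7% and those below 18.1% of the 116, against 23.8% and 21.6% of all measured genes. Among those of 1000 or more summed counts they were 47.8% and 21.7% of 92 genes, against 37.2% and 27.6%. At least 25% higher were 21 of the 116 (18.1%), against 11.6% of all measured genes, and at least 20% lower were 7 (6.03%), against 11.2%. At 1.5-fold 9 were higher (7.76%, against 4.41%) and 2 lower (1.72%, against 4.9%). Adhesion and stress fibre genes outside the main set had 11 of 23 intervals above 1 and 4 below. PALLD (palladin, a stress fibre scaffold) had 2764 counts in the library labelled Ad-Bmal1, against 1521 in the library labelled Ad-GFP, a ratio of 1.86 (1.75 to 1.98). FERMT2 (kindlin-2, an integrin activator) had 692 counts in the library labelled Ad-Bmal1, against 395 in the library labelled Ad-GFP, a ratio of 1.79 (1.58 to 2.03). Among LIM-domain adaptors, PDLIM5 had 1276 counts in the library labelled Ad-Bmal1 and 814 in the library labelled Ad-GFP, a ratio of 1.60 (1.47 to 1.75), and LPP had 358 counts in the library labelled Ad-Bmal1 and 236 in the library labelled Ad-GFP, a ratio of 1.55 (1.31 to 1.84). These 4 were the genes of that list past 1.5-fold, and with the length trend removed PALLD stood at 1.75, FERMT2 at 1.79, PDLIM5 at 1.49 and LPP at 1.29, the last pair under that size.

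Known targets and cofactors of serum response factor, MRTF and YAP had 11 of 20 intervals above 1 (55.0%, against 23.8% of all measured genes) and 1 below (5.0%, against 21.6%), with a median log2 ratio of 0.16. Of the 16 with 1000 or more summed counts, 8 lay above 1 (50%, against 37.2%) and 1 below (6.25%, against 27.6%). THBS1 (thrombospondin-1) had 10835 counts in the library labelled Ad-Bmal1, against 5558 in the library labelled Ad-GFP, a ratio of 2.00 (1.93 to 2.06). MRTFA, the actin-sensing cofactor itself, had 1815 counts in the library labelled Ad-Bmal1, against 1205 in the library labelled Ad-GFP, a ratio of 1.54 (1.43 to 1.66), and EDN1 (endothelin-1) had 158 counts in the library labelled Ad-Bmal1 and 101 in the library labelled Ad-GFP, a ratio of 1.60 (1.24 to 2.08). ANKRD1, a widely used YAP target, was lower, the 1 gene of the list with an interval below 1. It had 1714 counts in the library labelled Ad-Bmal1, against 3217 in the library labelled Ad-GFP, a ratio of 0.545 (0.514 to 0.578). In the same list CCN1 had 32388 counts in the library labelled Ad-Bmal1 and 28616 in the library labelled Ad-GFP. The ratio of CCN1 was 1.16 (1.14 to 1.18), that of CCN2 1.03 (0.948 to 1.12) and that of AMOTL2 1.16 (1.12 to 1.21). Past 1.5-fold, 3 genes of this list were higher and 1, ANKRD1, was lower.

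Other nucleation and turnover genes had 14 of 32 intervals above 1 (43.8%) and 7 below (21.9%), against 23.8% and 21.6% of all measured genes. Of the 24 with 1000 or more summed counts, 45.8% lay above 1 and 29.2% below, against 37.2% and 27.6%. WASF1, an activator of the Arp2/3 complex, had 636 counts in the library labelled Ad-Bmal1, against 353 in the library labelled Ad-GFP, a ratio of 1.84 (1.62 to 2.11). Other membrane cortex genes had 8 of 15 intervals above 1 and 4 below. There LCP1 (plastin-2, the leukocyte bundler) had 85 counts in the library labelled Ad-Bmal1, against 196 in the library labelled Ad-GFP, a ratio of 0.444 (0.340 to 0.575), while blood cell markers were at 0. Among the other actin and smooth muscle isoforms 3 of 9 were measured, and SMTN (smoothelin) had 2852 counts in the library labelled Ad-Bmal1 and 3006 in the library labelled Ad-GFP, a ratio of 0.971 (0.922 to 1.02).

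**Figure D5:**
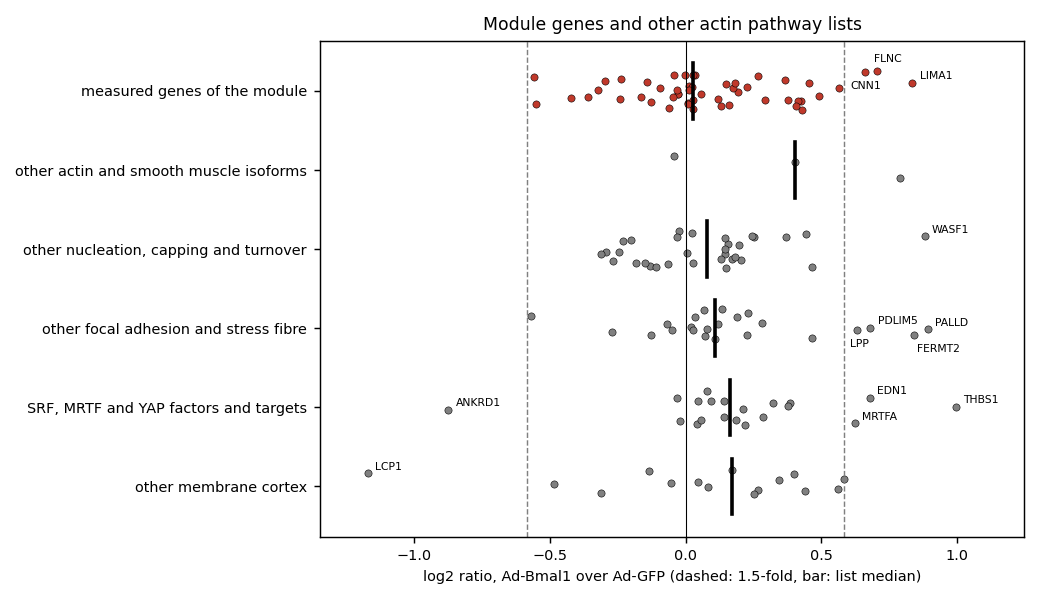
Log2 ratio, the library labelled Ad-Bmal1 divided by the library labelled Ad-GFP, of each measured gene in the main set (top) and in 5 other actin pathway lists; the black bar is the list median and dashed lines mark 1.5-fold. Labelled genes are those past 1.5-fold with an interval that excludes 1, and the lists lie mainly between the dashed lines.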

How the data were processed

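RNA of HK-2 cells from 2 libraries, 1 per group, was analysed. The authors deposited raw read counts for Ensembl genes, unscaled as far as the whole numbers show. The submitters' processing notes name HISAT2 and GRCh38. How reads were counted (tool, strand setting, annotation) is not given in the sources used here. Sample titles gave the groups, and 0 columns of per-sample values were left unused.

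TMM scaling used edgeR 4.0.16 (R 4.3.3), with factors of 0.988 for the library labelled Ad-Bmal1 and 1.01 for the library labelled Ad-GFP. A single library per group leaves no spread to estimate, so no p-value or SD is given. Ratios carry exact 95% conditional binomial (Clopper-Pearson) intervals; without molecular identifiers these may understate even counting error, and differences between cultures are not covered. Sizes named in the text were 1.25-fold (25% higher or 20% lower), 1.5-fold and 2-fold. A gene counted as measured at 1 CPM in at least 1 library (19.8 counts in the library labelled Ad-Bmal1, 20.3 in the library labelled Ad-GFP). Coordinates, lengths and coding sequences are from GENCODE 29 on GRCh38, and the trend on length was a lowess curve with a span of 0.3 (statsmodels 0.14.6). Other steps used Python 3.11.15, numpy 2.4.6, pandas 2.3.3, scipy 1.17.1 and matplotlib 3.10.9, and the steps were tested on simulated data.

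Members and gene lists were chosen with earlier results of these data known. Full values were given for members past 1.5-fold, the 12 with the highest mean CPM, each actin and each member whose direction turned under an alternative, and counts for the others were added. From each other list the genes past 1.5-fold were named, at most 4, or else up to 2 of the highest mean count. Not everything this rule covers is reported here. Other scalings tried were upper-quartile, total counts, DESeq2 1.42.0 size factors, and totals that leave out mitochondrial and the 20 most abundant genes. Other alternatives were removal of the length or GC trend, other filters and sizes, thinning, and a prior count of 2.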

Additional observations from a re-analysis of the deposited data

How the results depend on the processing

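The number of members with a ratio of 1.5 or more was 3, and between 2 and 4 under the other scalings, filters and trend removals, where the fourth without a filter on low counts was TPM2. It was 0 at a size of 2-fold and 11 at 25% higher. The number 1.5-fold lower was 0, but 1 on total counts (TMSB4X) and 4 at 20% lower. The member median log2 ratio was 0.03, or 0.07 with the length trend of abundant genes removed, an alternative chosen after seeing the data, and -0.01 on total counts; over protein-coding genes the background median was 0.01; the cause was not tested. Total counts turned the direction of 9 members, DESeq2 size factors of 4, upper-quartile scaling of 0, totals that leave out mitochondrial and the 20 most abundant genes of 4, length removal of 7 (9 with the trend of abundant genes, DIAPH3 and PXN added) and GC removal of 3, and none of them was among the genes at 25% higher or 20% lower. GC removal took GSN short of 20% lower, and total counts put ACTB past it. For the CArG box, the 250 bases before the start alone gave 14.6% of members and 1.44% of genes. Adding pseudogene counts moved ratios by at most 2.08%. Depth limits ROCK1, ROCK2, TPM2 and ACTA2, where a difference was not detectable or rests on few counts. No paired analysis was possible because each group has 1 library; the labels carry no replicate numbers, and the numbers in the count columns' names differ between the groups (1 for the library labelled Ad-Bmal1, 2 for the library labelled Ad-GFP) and were not used. For the same reason no library could be left out.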

Other observations

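The other filament systems of the cell were looked at through lists written after the files were seen. Of 16 tubulins and microtubule binders, all measured, 9 had an interval above 1 (56.2%, against 23.8% of all measured genes) and 4 below (25%, against 21.6%), with a median log2 ratio of 0.08. Of the 13 with 1000 or more summed counts, 8 lay above 1 (61.5%, against 37.2%) and 3 below (23.1%, against 27.6%). The genes past 1.5-fold were MAP1B, a microtubule binder of neurons, with 254 counts in the library labelled Ad-Bmal1 and 164 in the library labelled Ad-GFP, a ratio of 1.59 (1.30 to 1.94), and the beta-tubulin TUBB3, with 16 counts in the library labelled Ad-Bmal1 and 34 in the library labelled Ad-GFP, a ratio of 0.482 (0.248 to 0.897). With the length trend removed MAP1B stood at 1.35 and TUBB3 at 0.508. MAP4, which stabilises microtubules, had 11348 counts in the library labelled Ad-Bmal1 and 8156 in the library labelled Ad-GFP, a ratio of 1.42 (1.38 to 1.47). TUBA1A, an alpha-tubulin, had 4250 counts in the library labelled Ad-Bmal1 and 6076 in the library labelled Ad-GFP, a ratio of 0.716 (0.688 to 0.744), while TUBA1B, the most abundant alpha-tubulin of the list, had 31332 counts in the library labelled Ad-Bmal1 and 32456 in the library labelled Ad-GFP, a ratio of 0.988 (0.973 to 1.00). Of 10 intermediate filament and nuclear linker genes, 5 had an interval above 1 (50%) and 3 below (30.0%), against the same 23.8% and 21.6%, with a median log2 ratio of -0.02. VIM (vimentin) had 15528 counts in the library labelled Ad-Bmal1 and 21084 in the library labelled Ad-GFP, a ratio of 0.754 (0.738 to 0.769), and LMNA (lamin A/C) had 9356 counts in the library labelled Ad-Bmal1 and 9252 in the library labelled Ad-GFP, a ratio of 1.04 (1.01 to 1.07). MAP4, TUBA1A, TUBA1B, VIM and LMNA were chosen after their values were seen.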
